A study of Mus musculus with 15 samples.

Results

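The effect of blocking the interleukin-4 receptor on the allergic eye was read from 10 of the 15 RNA-Seq libraries of the series: 5 from OVA-challenged mice given anti–IL-4Rα (the anti–IL-4Rα group) against 5 from OVA-challenged mice given an isotype control antibody (the isotype group). The libraries were assigned to groups by their labels, and 5 libraries of PBS-challenged mice (the PBS group) entered the same fit and serve here as the unchallenged level. All mice were wild type, of a strain labelled BALC/c (female BALB/c mice aged 9 to 12 weeks in the methods), and all were sensitized in the skin with MC903 and OVA, MC903 being a vitamin D analog applied for 7 days that inflames the skin. The antibodies were given at 25 mg/kg on days 10, 14, 18 and 21, and OVA or PBS was dropped onto the eye daily from day 18 to day 24, so that blockade began after sensitization; the labels name no antibody for the PBS group. Whole conjunctival tissue was used, so fewer cells of a type and less RNA per cell cannot be told apart. Of 55487 genes listed, 19006 with at least 10 counts in at least 5 of the 15 libraries were compared.

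IL-4 and IL-13 both act through receptors that contain IL-4Rα, and both signal through the transcription factor STAT6. In barrier tissues they are known for inducing chitinase-like proteins in macrophages, mucus and remodeling genes in epithelium and stroma, chemokines that draw eosinophils, and, together with other type 2 signals, the mast cell response. The lacrimal gland lies next to the conjunctiva and secretes very large amounts of a few proteins, among them the odorant-binding protein encoded by *Obp1a* and the mucin-like protein encoded by *Mucl2*, so a small piece of gland in a sample can fill much of its RNA.

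The libraries differed greatly in how much lacrimal RNA they held. In the isotype group, replicates 1 to 5 had 15099, 0.287, 2791, 11433 and 1817 CPM of *Obp1a* (ENSMUSG00000067684, chromosome X, 78085505 to 78091374 on GRCm38), where CPM is counts per 1000000 counts of a TMM-normalized library. In the anti–IL-4Rα group the values were 51556, 24044, 455, 65833 and 61559.9 CPM. The groups overlapped: isotype replicate 2 stood far below all other OVA-challenged libraries, and anti–IL-4Rα replicate 3 stood below the other 4 of its group. The lacrimal level, the mean log2 CPM of *Obp1a* and *Mucl2* (ENSMUSG00000036925, chromosome 15, 103895855 to 103899312), was 14.33 ± 3.03 in the anti–IL-4Rα group and 9.67 ± 6.39 in the isotype group (SD, n = 5 each), a difference of 4.66 that did not pass the test (two-sided p = 0.151 by exact permutation, where 5 against 5 can give no p below 0.00794). Without anti–IL-4Rα replicate 3 the difference was 5.99 (p = 0.0159 by exact permutation), and without it and isotype replicate 2 it was 3.197, with all 4 anti–IL-4Rα libraries above all 4 isotype libraries (p = 0.0286 by exact permutation, the smallest that 4 against 4 allow). As a share of all counts, 19 lacrimal secretory genes, a list chosen on these same samples, took 0.159 to 15.8% of an anti–IL-4Rα library and 0.00334 to 3.99% of an isotype library (two-sided p = 0.0476 by exact permutation, computed after the values were seen). Isotype replicate 2 also stood apart in hair follicle genes. The mean log2 CPM of 15 of these, such as the sheath gene *Tchh*, was 8.86 in isotype replicate 2 against 4.77 to 5.90 in the other isotype libraries, and 6.28 in anti–IL-4Rα replicate 3 against 4.12 to 5.51. Isotype replicate 2 was also the deepest library, with 87745024 counts where the other 14 had 48622246 to 71637073, and a difference in totals between the groups was not detected (two-sided p = 0.849 by exact permutation). Summed over 16 genes of conjunctival and corneal epithelium, the level was 14881 to 18881 CPM in the isotype group and 12369 to 16865 CPM in the anti–IL-4Rα group. In isotype replicate 1, *Krt5*, *Krt14* and *Krt15* held the most of these counts, at 279774, 201789 and 130034. *Krt4*, *Krt13* and *Krt19* had 41953, 44870 and 24799 there. Epidermal barrier genes, such as *Krt10* and *Lor*, summed to 20078 to 27315 CPM in the isotype group and 15346 to 22196 CPM in the anti–IL-4Rα group. Genes of the meibomian gland (6454 to 22691 CPM) and of skeletal muscle (6070 to 11378 CPM) were present too; both tissues belong to the eyelid.

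**Figure D1:**
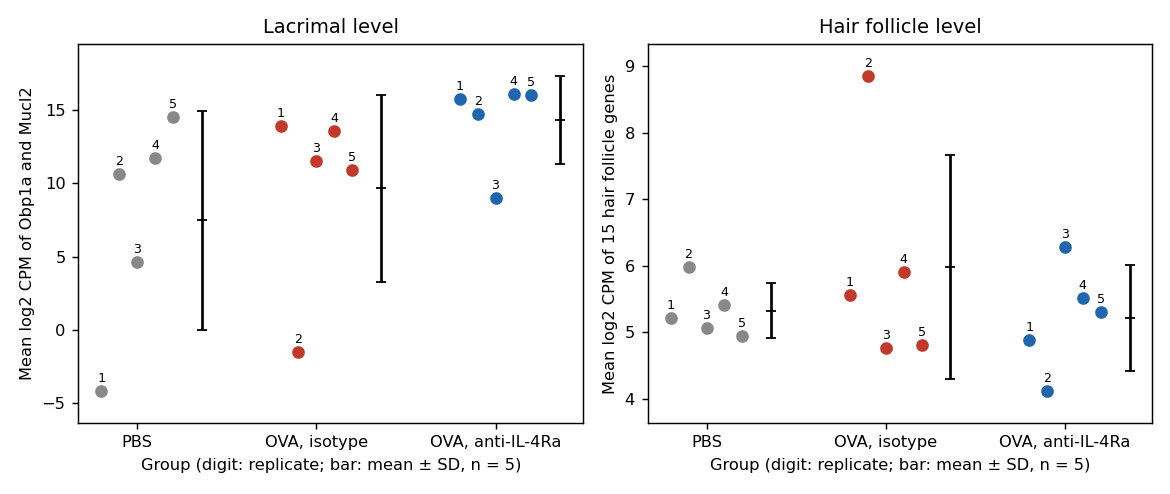
Lacrimal level (left, mean log2 CPM of Obp1a and Mucl2) and hair follicle level (right, mean log2 CPM of 15 genes) of each library in the PBS, isotype and anti–IL-4Rα groups; digits are replicate numbers and bars are the mean ± SD (n = 5). Isotype replicate 2 has the lowest lacrimal level of the OVA-challenged libraries (-1.51) and the highest hair follicle level (8.86).

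Each gene was therefore fitted with and without the lacrimal level as a covariate, both times with edgeR's quasi-likelihood test over the 3 groups, and a gene was called at a Benjamini-Hochberg adjusted p under 0.05. Without the covariate, 1546 genes (8.13% of those compared) were lower and 1280 (6.73%) higher in the anti–IL-4Rα group. With it, 690 (3.63%) were lower and 333 (1.75%) higher. Apart from *Obp1a* and *Mucl2*, 685 genes (3.6%) were lower and 333 (1.75%) higher in both fits, and these are called here the genes that fell or rose in both fits; no gene was called in opposite directions. Every one of the 1546 and 1280 genes kept its sign with the covariate, and at the median they kept 84.5% and 82.3% of their log2 fold change, with an SE 0.973 and 0.952 times that without it. The falls were larger than the rises. The median log2 fold change was -0.67 among genes that fell in both fits and 0.47 among those that rose, against 0.01 over all genes, and 175 fell and 42 rose by at least 2-fold. All 5 anti–IL-4Rα libraries lay below all 5 isotype libraries for 556 of the 685 (2.93% of all genes), and such a gap was found for 4.96% of all genes. They lay above for 154 of the 333 (0.81% of all genes), where the share over all genes is 2.35%. In 376 of the 685 genes, isotype replicate 1 was the lowest isotype library, and in 317 anti–IL-4Rα replicate 3 was the highest of its group. Without isotype replicate 2 and anti–IL-4Rα replicate 3 together, 953 genes fell and 1135 rose in both fits. The counts rested on many libraries, among them PBS replicate 1, which had the lowest lacrimal level of all 15 libraries (-4.20). The 685 dropped to 262 without isotype replicate 3, to 376 and 433 without anti–IL-4Rα replicates 1 and 2, to 387 without isotype replicate 5 and to 412 without PBS replicate 1. The 333 dropped to 32 and 80 without isotype replicates 3 and 5, to 81, 167, 103 and 176 without anti–IL-4Rα replicates 1, 2, 4 and 5, and to 94, 184 and 198 without PBS replicates 1, 4 and 5, and it grew to 1084 without anti–IL-4Rα replicate 3.

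The 19 lacrimal secretory genes behaved otherwise. None was called without the covariate, and none with it, where *Obp1a* and *Mucl2* were left out. All 19 had a higher mean in the anti–IL-4Rα group, with a median log2 fold change of 2.64, which became -0.13 with the covariate. The covariate is built from *Obp1a* and *Mucl2*, which are on this list, so their shift toward 0 was fixed in advance. Across all genes, 112 (0.589%) had a positive and 42 (0.221%) a negative slope on the lacrimal level that passed the test, the 42 including 26 genes called lower without the covariate. *Esp31* (ENSMUSG00000092342, chromosome 17, 38639447 to 38645653), an exocrine gland-secreted peptide gene that was not on the list, was called only with the lacrimal level in the fit. Its level was 344, 0.0102, 55.1, 277 and 42.4 CPM in isotype replicates 1 to 5 and 811, 403, 5.11, 1414 and 919.6 CPM in anti–IL-4Rα replicates 1 to 5, lowest in the same library of each group as *Obp1a*. Its log2 fold change of 2.31 (adjusted p = 0.384, SE 1.80) turned to -0.67 (adjusted p = 0.0124, SE 0.13) with the lacrimal level in the fit. The counts also moved with the scale of the covariate. With the mean CPM of *Obp1a* and *Mucl2* on the linear scale, the groups differed by 2.03 within-group SD in the covariate (0.786 on the log2 scale). At the median, the SE of the genes called lower was 1.39 times that without a covariate, and of those called higher 1.19 times. The genes called lower kept 80.9% of their log2 fold change at the median, and those called higher 54.6%. All 1546 called lower and 1211 of the 1280 called higher kept their sign. With this covariate 23 genes fell and 4 rose in both fits.

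**Figure D2:**
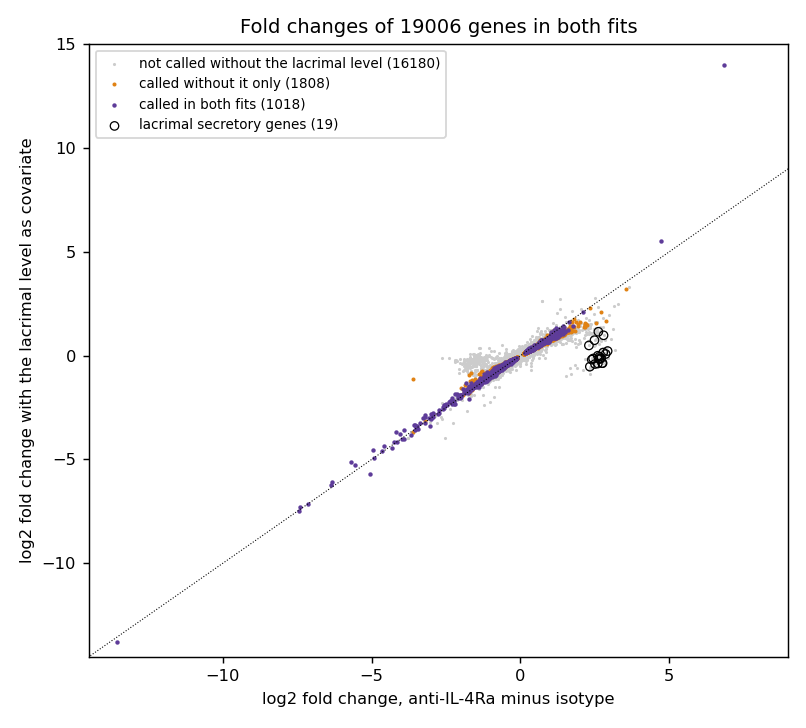
Log2 fold change of each gene (anti–IL-4Rα minus isotype) without the lacrimal level (horizontal axis) and with it (vertical axis), colored by where the gene was called; circles are the 19 lacrimal secretory genes and the dotted line marks equal values. The 1018 genes called in both fits lie mostly along the line, and the circled genes lie near 0 on the vertical axis only. The circled genes include Obp1a and Mucl2, from which the lacrimal level is built.

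Among the genes that fell in both fits without overlap of the groups, the 15 largest falls (with at least 1 CPM in the isotype group, predicted genes and immunoglobulin segments left out) were *Chil4*, *Mrgprg*, *Pyy*, *Gsdmc3*, *Gsdmc2*, *Sprr2a3*, *Il24*, *Sprr2a2*, *Chil3*, *Col6a5*, *Mmp10*, *Sprr2a1*, *Mcpt1*, *Lce3d* and *Il19*. They ran from a log2 fold change of -13.54 to -4.17, and with the lacrimal level from -13.78 to -3.70. Isotype replicate 1 was the lowest isotype library in 10 of the 15. Without any single library, each of the 15 was still called wherever it passed the filter on counts, both without the covariate and with the lacrimal level. *Chil4*, *Il24*, *Chil3* and *Il19* reached 10 counts in the isotype libraries only. They passed the filter through that group alone, and dropped out of every fit that left out an isotype library. For these genes that loss was not tested. With the covariate on the linear scale, *Il24*, *Chil3*, *Mmp10*, *Sprr2a1*, *Mcpt1* and *Il19* were no longer called.

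**Figure D3:**
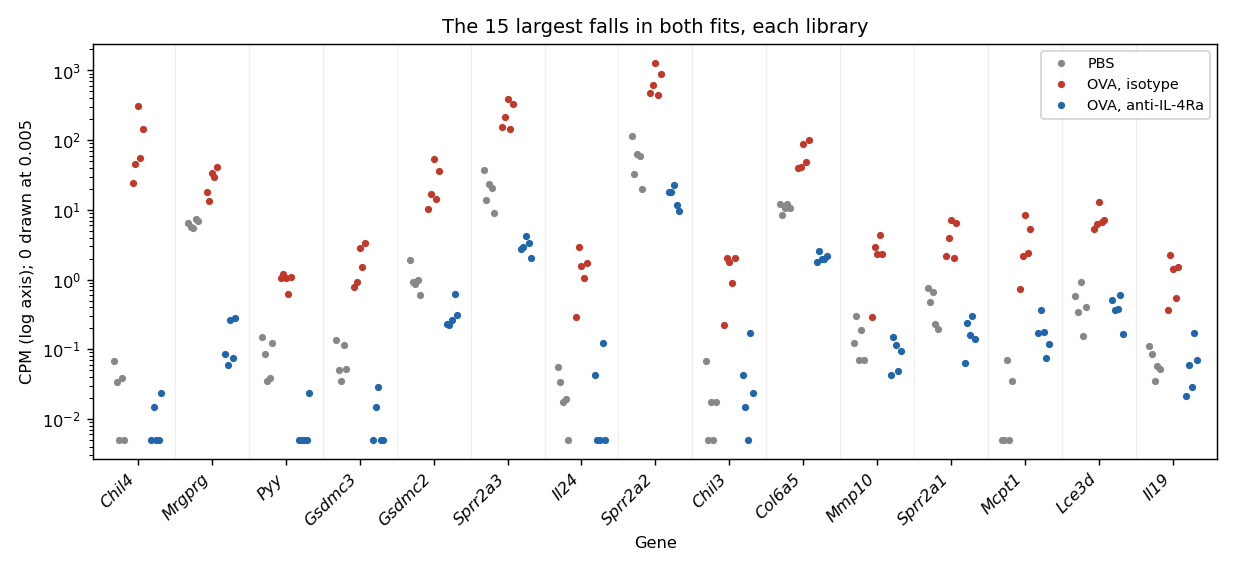
CPM (log axis, 0 drawn at 0.005) of the 15 genes with the largest falls, each dot 1 library of the PBS, isotype or anti–IL-4Rα group. For each gene all 5 anti–IL-4Rα libraries lie below all 5 isotype libraries, and for Mrgprg, Pyy, Gsdmc3, Sprr2a3 and Col6a5 they also lie below the 5 PBS libraries. For Pyy and Gsdmc3 the gap from PBS rests on few counts: at most 1 and 2 in an anti–IL-4Rα library, and 2 in the lowest PBS library.

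*Mrgprg* (ENSMUSG00000050276, chromosome 7, 143763710 to 143766993), an orphan receptor of the Mas-related family whose other members include itch receptors, had 18.1, 13.5, 33.4, 29.2 and 40.7 CPM in isotype replicates 1 to 5. In anti–IL-4Rα replicates 1 to 5 it had 0.0852, 0.0603, 0.262, 0.0741 and 0.283 CPM. The lowest isotype library thus stood far above the highest anti–IL-4Rα library, and the log2 fold change was -7.43 (adjusted p = 4.9e-07, SE 0.43), or -7.51 (adjusted p = 1.88e-06, SE 0.42) with the lacrimal level. The PBS libraries, at 5.43 to 7.34 CPM, lay between both groups, and the log2 difference of the anti–IL-4Rα group from them was -5.34 (adjusted p = 4.85e-05). *Col6a5* (ENSMUSG00000091345, chromosome 9, 105856078 to 105960643), a chain of collagen VI found in skin, had 39.5, 40.9, 87.8, 49.1 and 99.5 CPM in the isotype libraries and 1.77, 2.59, 1.97, 1.98 and 2.20 CPM in the anti–IL-4Rα libraries. Its log2 fold change was -4.91 (adjusted p = 4.9e-07, SE 0.28), with -4.94 in the second fit, and it too went below the PBS group (8.59 to 12.2 CPM), with a log2 difference of -2.36 (adjusted p = 0.00139). The adjusted p of these 2 genes was the smallest of all genes compared. *Pyy* (ENSMUSG00000017311, chromosome 11, 102106676 to 102107832), a gut hormone of the neuropeptide Y family, was at 1.06, 1.21, 1.04, 0.629 and 1.10 CPM in the isotype libraries and had 1 count in all 5 anti–IL-4Rα libraries together against 329 in the isotype libraries. That is a ratio of 273 (95% exact interval 48.7 to 10826, counting error only).

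The gasdermin C genes, a cluster on chromosome 15 that encodes pore-forming proteins of epithelial cells, fell together, and they fell further than any other gasdermin. *Gsdmc2* (ENSMUSG00000056293, chromosome 15, 63824346 to 63845177) was at 10.3, 16.8, 52.9, 14.4 and 36.6 CPM in the isotype libraries and 0.234, 0.226, 0.262, 0.618 and 0.307 CPM in the anti–IL-4Rα libraries, with a log2 fold change of -6.35 (adjusted p = 3.28e-05, SE 0.55). *Gsdmc* (ENSMUSG00000079025, chromosome 15, 63775968 to 63808759) went from 86.0 ± 29.9 to 7.27 ± 0.918 CPM (mean ± SD, n = 5), which is a log2 fold change of -3.57 (adjusted p = 2.78e-05, SE 0.30), and *Gsdmc4* fell with a log2 fold change of -3.53. *Gsdmc3* had 3 counts over the 5 anti–IL-4Rα libraries and 567 over the isotype libraries, a ratio of 157 (95% exact interval 53.4 to 764, counting error only), in which the groups did not overlap. Of the 9 gasdermins compared, 5 were called lower and 0 higher, the fifth being *Gsdma3* (log2 fold change -0.53, adjusted p = 0.0284), and 4 fell in both fits, against 3.6% of all genes; these 4 also fell with the linear covariate. The other members had log2 fold changes from -0.55 (*Gsdme*) to -0.12 (*Gsdmd*). The C genes are close copies of each other, and reads were kept only where they mapped uniquely, so the split between them is uncertain.

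*Chil4* (ENSMUSG00000063779, chromosome 3, 106201490 to 106219507) and *Chil3* (ENSMUSG00000040809, chromosome 3, 106147554 to 106167564) encode chitinase-like proteins of macrophages and epithelium that IL-4 and IL-13 are known to induce. *Chil4* had 24.2, 45.7, 308, 55.1 and 146 CPM in the isotype libraries, and 2 counts in all 5 anti–IL-4Rα libraries against 35149, a ratio of 14598 (95% exact interval 4041 to 120546, counting error only); the fitted log2 fold change of -13.54 depends on the prior count. *Chil3* had 0.225, 2.02, 1.82, 0.908 and 2.06 CPM in the isotype libraries and 0.0426, 0.0151, 0, 0.173 and 0.0236 CPM in the anti–IL-4Rα libraries, a log2 fold change of -4.95 (adjusted p = 0.00369, SE 0.79). Both genes were lowest in isotype replicate 1 within their group. The list of 20 genes of alternatively activated macrophages had 10 members called lower, against 8.13% of all genes, and 0 higher. In both fits 6 fell, against 3.6% of all genes, and the list's median log2 fold change was -0.59. With the linear covariate 1 member fell in both fits. *Pdcd1lg2*, which encodes the PD-1 ligand PD-L2, fell from 2.06 ± 1.07 to 0.261 ± 0.116 CPM, which is a log2 fold change of -2.93 (adjusted p = 0.00121, SE 0.40), and *Alox15*, a lipoxygenase of macrophages, eosinophils and epithelium, fell with a log2 fold change of -2.29. *Ccl17*, a chemokine for Th2 cells, was called without the covariate only, with a log2 fold change of -1.88 (adjusted p = 0.0159) that was -1.40 with it (adjusted p = 0.0519). The log2 fold changes of *Retnla*, which encodes the secreted protein FIZZ1, at -0.67 (adjusted p = 0.219), of the chemokine gene *Ccl24*, at -0.10 (adjusted p = 0.78), and of the lectin gene *Clec10a*, at -0.16 (adjusted p = 0.556), did not pass. Without isotype replicate 3, 4 of the 20 were called lower and 2 fell in both fits.

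The small proline-rich and late cornified envelope genes, which encode precursors of the cornified cell envelope, held 4 of the 15 largest falls. *Sprr2a2* was at 474, 619, 1287, 447 and 899 CPM in the isotype libraries and 17.9, 17.9, 22.5, 11.7 and 9.78 CPM in the anti–IL-4Rα libraries, a log2 fold change of -5.55 (adjusted p = 4.6e-05, SE 0.50). *Sprr2a3* was at 153, 215, 396, 144 and 330.3 CPM and 2.71, 2.91, 4.17, 3.36 and 2.05 CPM, a log2 fold change of -6.34 (adjusted p = 7.04e-06, SE 0.46). *Sprr2a1* was at 2.17, 3.92, 7.24, 2.04 and 6.59 CPM and 0.0639, 0.241, 0.160, 0.296 and 0.142 CPM, a log2 fold change of -4.59 (adjusted p = 0.000334, SE 0.52). In all 3 the lowest isotype library lay far above the highest anti–IL-4Rα library. The annotated spans of *Sprr2a1* (ENSMUSG00000078664, chromosome 3, 92215799 to 92221911) and *Sprr2a2* (ENSMUSG00000068893, chromosome 3, 92215920 to 92256724) overlap on the same strand, so the split of reads between them is uncertain. Their upstream sequences are nearly one sequence. In the RefSeq promoter windows of 300 bases (GRCm38.p6), *Sprr2a1* and *Sprr2a2* were identical at 300 of 300 bases, and *Sprr2a3* matched both at 272 of 272 bases once shifted by 28. The 250 bases before the start are shown for 2 of the 3 because the members moved together; capitals mark a TTCNNNNGAA match, the spaced palindrome that STAT6 is known to bind, which reads the same on both strands. The first is chr3:92250397-92250646 and the second chr3:92285054-92285303, both on the plus strand, and the match begins 204 and 176 bases before the start.
Sprr2a2: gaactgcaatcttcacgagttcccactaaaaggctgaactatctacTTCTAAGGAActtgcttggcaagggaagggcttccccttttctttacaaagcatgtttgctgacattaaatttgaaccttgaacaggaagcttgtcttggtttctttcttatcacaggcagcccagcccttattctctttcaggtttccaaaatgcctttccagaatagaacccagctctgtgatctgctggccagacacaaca
Sprr2a3: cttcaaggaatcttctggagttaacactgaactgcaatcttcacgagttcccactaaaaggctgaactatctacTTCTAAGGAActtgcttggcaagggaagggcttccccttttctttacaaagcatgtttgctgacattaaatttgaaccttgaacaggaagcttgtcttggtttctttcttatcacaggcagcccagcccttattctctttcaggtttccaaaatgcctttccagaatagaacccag

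The motif was found in the promoter window of 4 of the 13 largest-fall genes with a RefSeq promoter, the fourth being *Mrgprg*, and in 1 of 12 of the 15 largest rises. Over all genes with a promoter in the table it was found in 8.01%, over the genes compared in 6.78%, over the genes that fell in both fits in 45 of 523 (8.6%) and over those that rose in both fits in 18 of 248 (7.26%). The shares over the whole sets were thus near that of all promoters, and 3 of the 4 matches are the copies just shown. The form with 1 base less between its arms, TTCNNNGAA, was searched too; it was found in 9.55% of all promoters, in 52 of the 523 (9.94%), in 17 of the 248 (6.85%) and in 6 of the 13. A match is a run of letters, and binding was not measured.

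Of the 21 *Sprr* and *Lce3* genes compared, 15 were called lower, against 8.13% of all genes, and 0 higher. In both fits 13 fell, against 3.6% of all genes, and 5 did with the linear covariate. The median log2 fold change was -2.05. *Lce3d* fell from 7.73 ± 3.12 to 0.402 ± 0.163 CPM (log2 fold change -4.26, adjusted p = 0.000113, SE 0.43), and *Sprr2g* and *Sprr1b* fell with log2 fold changes of -3.48 and -3.39. A single anti–IL-4Rα library set the result of several close members. *Sprr2e* was at 6.72, 8.23, 7.88, 7.41 and 8.29 CPM in the isotype libraries and 0.383, 0.211, 0.583, 7.76 and 0.0945 CPM in the anti–IL-4Rα libraries, and *Sprr2i* at 3.23, 4.57, 2.59, 3.23 and 2.26 and 0.192, 0.166, 0.189, 2.99 and 0.142 CPM. In both, anti–IL-4Rα replicate 4 stood within or near the isotype range while the other 4 libraries were far below it, and the log2 fold changes of -2.13 (adjusted p = 0.0974) and -2.17 (adjusted p = 0.0611) did not pass. The pseudogene *Sprr2j-ps* showed the same library apart, with 0.0213, 0.0151, 0.0291, 0.692 and 0 CPM in the anti–IL-4Rα group against 0.613, 1.63, 1.20, 1.62 and 1.16 CPM. *Sprr2b*, at 1.08 (adjusted p = 0.494), was the 1 member with a higher mean. The number in both fits ranged from 12 to 18 over the fits without a single library.

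The stress keratins, made by activated epithelium, followed: 4 of 6 fell in both fits, against 3.6% of all genes, with a median of -0.81. None of the 6 fell in both fits with the linear covariate, nor with the isotype and anti–IL-4Rα libraries only. *Krt16* was at 372, 629, 788, 416 and 667 CPM in the isotype libraries and 60.4, 37.96, 85.0, 239.9 and 60.6 CPM in the anti–IL-4Rα libraries, with replicate 4 again the highest, a log2 fold change of -2.57 (adjusted p = 0.00479, SE 0.44). *Krt6b* and *Krt6a*, with means from 1521 to 827 CPM and from 2097 to 1244 CPM, fell with log2 fold changes of -0.88 and -0.75. *Krt14*, the keratin of basal cells, fell from 4664 ± 659.9 to 2775 ± 320.2 CPM (log2 fold change -0.75, adjusted p = 0.00243, SE 0.11), whereas its partner *Krt5* (log2 fold change -0.26, adjusted p = 0.125) did not pass. Among 22 epidermal barrier genes, 9 were called lower and 7 fell in both fits (median log2 fold change -0.36), led by the kallikrein proteases *Klk6* (log2 fold change -1.76, adjusted p = 3.28e-05, SE 0.15), *Klk13* (log2 fold change -1.08) and *Klk7* (log2 fold change -0.84), the transglutaminase *Tgm3* (log2 fold change -0.83) and the envelope gene *Rptn* (log2 fold change -0.82). *Klk6* was at 158, 190.2, 290.1, 183 and 209 CPM in the isotype libraries and 62.2, 59.8, 58.1, 58.4 and 65.3 CPM in the anti–IL-4Rα libraries, a spread of a few CPM in the latter. Main structural genes of this list did not pass: loricrin (*Lor*) had a log2 fold change of -0.01 (adjusted p = 0.976), filaggrin (*Flg*) -0.40 (adjusted p = 0.155) and *Krt10*, the keratin of differentiating epidermis, -0.08 (adjusted p = 0.76). None of 10 *Serpinb* protease inhibitor genes was called (median log2 fold change -0.22). Without isotype replicate 3, 5 barrier genes were called lower, and 4 fell in both fits without PBS replicate 1. With the linear covariate 1 barrier gene fell in both fits. Over all genes 8.13% were called lower and 3.6% fell in both fits.

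Of 12 goblet cell and mucin genes, 1 was called lower, a share near the 8.13% of all genes, and of 15 ion transport genes 6 were. *Clca1*, a secreted protein of goblet cells that IL-13 is known to induce, was at 0.592, 0.993, 2.02, 1.47 and 3.61 CPM in the isotype libraries and 0.213, 0.136, 0.204, 0.173 and 0.0472 CPM in the anti–IL-4Rα libraries, a log2 fold change of -3.45 (adjusted p = 0.00121, SE 0.47). *Fcgbp*, a mucus protein, fell from 241 ± 43.6 to 139.5 ± 21.01 CPM (log2 fold change -0.79, adjusted p = 0.00545, SE 0.14) and was the goblet cell gene called lower. The conjunctival mucin gene *Muc5ac*, which went from 1745 to 1389 CPM on average, did not pass (log2 fold change -0.33, adjusted p = 0.199), nor did *Spdef*, the goblet cell transcription factor (log2 fold change 0.27, adjusted p = 0.241). Of the 15 ion transport genes, 1 was called higher, and 3 fell in both fits. These were *Clca1*, the sodium channel subunit *Scnn1a* (log2 fold change -0.52, adjusted p = 0.00254) and the water channel *Aqp3* (log2 fold change -0.60, adjusted p = 0.0181), the last no longer called without isotype replicate 3. The sodium-proton exchanger *Slc9a4* rose. Without isotype replicate 3 the ion transport list had 2 genes called lower, and with the linear covariate none fell in both fits. Over all genes 3.6% fell in both fits.

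The receptor and its pathway were measured directly. *Il4ra* (ENSMUSG00000030748, chromosome 7, 125552120 to 125579474), which encodes the blocked receptor chain and is itself known to be induced by IL-4, was at 76.0, 101, 99.4, 95.7 and 164 CPM in the isotype libraries and 73.9, 39.9, 57.0, 48.5 and 37.4 CPM in the anti–IL-4Rα libraries. The anti–IL-4Rα replicate 1 value lay just below the lowest isotype value, and the log2 fold change was -1.06 (adjusted p = 0.0119, SE 0.22), or -1.08 (adjusted p = 0.0247, SE 0.24) with the lacrimal level. *Il13ra2*, the decoy receptor for IL-13, had 5.17, 4.54, 5.40, 6.04 and 7.58 CPM in the isotype libraries and 2.83, 2.67, 3.35, 3.85 and 3.99 CPM in the anti–IL-4Rα libraries, a log2 fold change of -0.78 (adjusted p = 0.00983, SE 0.16); the PBS libraries, at 6.87 to 10.5 CPM, lay above all anti–IL-4Rα libraries and overlapped the isotype libraries. The feedback inhibitors *Cish* (log2 fold change -0.73, adjusted p = 0.00168, SE 0.10) and *Socs1* (log2 fold change -0.80, adjusted p = 0.00993, SE 0.16) fell in both fits as well, and *Socs3* (log2 fold change -0.70, adjusted p = 0.0315) and the receptor chain *Il13ra1* (log2 fold change -0.37, adjusted p = 0.0305) were called without the covariate only. The ligands were scarce: *Il13* was at 0.633, 0.788, 0.875, 0.821 and 1.16 CPM and 0.298, 0.543, 0.787, 0.593 and 0.378 CPM, a log2 fold change of -0.70 (adjusted p = 0.0811, SE 0.26), and *Il4* at 0.341 ± 0.150 and 0.248 ± 0.124 CPM, a log2 fold change of -0.41 (adjusted p = 0.485, SE 0.39), so neither passed, and *Il5*, *Il9* and *Il31* were below the count minimum. The shared chain *Il2rg* (log2 fold change -0.43, adjusted p = 0.128) and *Stat6* (log2 fold change -0.12, adjusted p = 0.0893) did not pass either. Of the 15 genes of the pathway compared, 6 were called lower, against 8.13% of all genes, and 0 higher. In both fits 4 fell, against 3.6% of all genes, and the median was -0.43. With the linear covariate none of the 15 fell in both fits, nor with the isotype and anti–IL-4Rα libraries only. With the lacrimal level in the fit, *Il4ra* lost its call without either of isotype replicates 3 and 5, or anti–IL-4Rα library 2 or 4, *Socs1* without either of isotype replicates 3 and 5, or anti–IL-4Rα library 1 or 2, and *Il13ra2* without either of isotype replicates 3 and 5, or anti–IL-4Rα library 1. The number in both fits was 1 without isotype replicate 3.

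Of 15 mast cell genes, 4 fell in both fits, against 3.6% of all genes. With the linear covariate none did, and 1 did with the isotype and anti–IL-4Rα libraries only. *Mcpt2*, a chymase of mucosal mast cells beside *Mcpt1*, was at 0.347, 1.26, 4.53, 1.69 and 2.27 CPM in the isotype libraries and 0.298, 0.286, 0.262, 0.0988 and 0.0945 CPM in the anti–IL-4Rα libraries, a log2 fold change of -3.22 (adjusted p = 0.00553, SE 0.57). *Mcpt1* itself was at 0.735, 2.21, 8.50, 2.38 and 5.24 and 0.170, 0.362, 0.175, 0.0741 and 0.118 CPM, a log2 fold change of -4.33 (adjusted p = 0.00292, SE 0.67), and both genes were lowest in isotype replicate 1. The tryptase gene *Tpsab1* (log2 fold change -1.43, adjusted p = 0.00769, SE 0.27) and *Hdc*, the enzyme that makes histamine (log2 fold change -1.58, adjusted p = 0.0118, SE 0.33), also fell in both fits, with groups that overlapped at isotype replicate 1. The connective tissue chymase *Mcpt4* (log2 fold change -0.20, adjusted p = 0.45), *Kit* (log2 fold change 0.02, adjusted p = 0.929), which encodes the mast cell growth factor receptor, and the carboxypeptidase *Cpa3* (log2 fold change -0.32, adjusted p = 0.265) did not pass. The list had a median log2 fold change of -0.41, and 2 of its genes fell in both fits without isotype replicate 3. With the lacrimal level in the fit, *Hdc* lost its call without PBS replicate 1, either of isotype replicates 3 and 5, or anti–IL-4Rα library 1, 4 or 5, and *Tpsab1* without isotype replicate 3. All 8 basophil genes compared, 4 of which are also on the mast cell list, had a lower mean. Their median log2 fold change was -0.42, or -0.43 with the lacrimal level. Of the 8, 1 was called lower, which is not far from the 8.13% of all genes. It was *Mcpt8*, called without the covariate only, with a log2 fold change of -1.74 (adjusted p = 0.0384, SE 0.51) and -1.70 (adjusted p = 0.0939, SE 0.57) with it. Its isotype and anti–IL-4Rα libraries overlapped, at 0.899 to 6.27 and 0.296 to 1.16 CPM, and it was no longer called without any of isotype replicates 2, 3 and 5, or anti–IL-4Rα library 1, 2, 4 or 5.

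Of 10 genes of eosinophils and of the chemokines that draw them, 5 fell in both fits, against 3.6% of all genes (median log2 fold change -0.78). Without isotype replicate 4, 3 did. With the linear covariate none did, and 3 did with the isotype and anti–IL-4Rα libraries only. *Ear2*, an eosinophil-associated ribonuclease also made by macrophages, was at 11.8, 10.01, 15.6, 18.4 and 17.7 CPM in the isotype libraries and 3.81, 4.14, 4.59, 2.10 and 3.07 CPM in the anti–IL-4Rα libraries, a log2 fold change of -2.05 (adjusted p = 0.000383, SE 0.24). *Ccl11*, the eosinophil chemoattractant eotaxin, was at 30.7, 24.6, 43.5, 36.3 and 52.9 CPM and 16.3, 18.3, 18.2, 19.0 and 17.8 CPM, a log2 fold change of -1.07 (adjusted p = 0.00221, SE 0.16). *Il1rl1*, the IL-33 receptor that mast cells and Th2 cells also carry, fell from 18.4 ± 8.17 to 6.08 ± 0.815 CPM (log2 fold change -1.60, adjusted p = 0.00769, SE 0.30), with anti–IL-4Rα values of 5.66 to 7.53 CPM, isotype replicate 1 below all of these at 4.88 CPM and the other isotype libraries at 18.8 to 26.8 CPM; with the lacrimal level it was not called without any of isotype replicates 3, 4 and 5, or anti–IL-4Rα library 1. The more restricted eosinophil genes did not pass: *Siglecf* had a log2 fold change of -0.13 (adjusted p = 0.832), the eotaxin receptor *Ccr3* -0.19 (adjusted p = 0.723) and *Il5ra* -0.50 (adjusted p = 0.386), and the granule genes *Epx*, *Prg2* and *Prg3* were below the count minimum.

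Among monocyte and macrophage chemokines and their receptors, 5 of 13 were called lower, against 8.13% of all genes (median log2 fold change -0.84). In both fits 2 fell, against 3.6% of all genes. With the linear covariate none of the 13 fell in both fits, nor with the isotype and anti–IL-4Rα libraries only. *Ccl8*, a chemokine of macrophages, was at 139.6, 251.7, 399.6, 222 and 434 CPM in the isotype libraries and 89.0, 91.4, 129, 52.3 and 80.5 CPM in the anti–IL-4Rα libraries, a log2 fold change of -1.71 (adjusted p = 0.00441, SE 0.28). It is 1 of 5 genes that fell in both fits and were still above the PBS group, by a log2 fold change of 1.41 (adjusted p = 0.0252); the others were *Gzmb*, *Klk1*, *Lag3* and *Tnfsf11*, named after their values were seen. The receptor gene *Ccr1* fell with a log2 fold change of -1.25 (adjusted p = 0.0127), and *Ccl7* (log2 fold change -1.61, adjusted p = 0.0259) was called without the covariate only. Without isotype replicate 2, 2 of the 13 were called lower, and 1 fell in both fits without PBS replicate 1; with the lacrimal level, *Ccr1* was not called without PBS replicate 1, either of isotype replicates 3 and 5, or anti–IL-4Rα library 1, 2, 4 or 5. The neutrophil list had 5 of 14 called lower and 4 in both fits (median log2 fold change -0.97), namely *Trem1* (log2 fold change -3.02, adjusted p = 0.00537, SE 0.53), the collagenase *Mmp8* (log2 fold change -2.46), *Il1b* (log2 fold change -1.81), which macrophages also make, and *Csf3r* (log2 fold change -1.53, adjusted p = 0.00479, SE 0.26), the receptor for the neutrophil growth factor G-CSF. *Csf3r* was at 9.95, 24.1, 20.5, 20.1 and 38.3 CPM in the isotype libraries and 7.39, 7.82, 9.44, 8.05 and 6.54 CPM in the anti–IL-4Rα libraries. The calprotectin genes *S100a8* and *S100a9* (log2 fold change -0.82 (adjusted p = 0.431) and -1.16 (adjusted p = 0.307)) did not pass, and the neutrophil-defining genes *Ly6g*, *Camp* and *Ngp* were below the count minimum. In the anti–IL-4Rα group 11 of the 14 had a lower and 3 a higher mean, the log2 fold changes reaching 0.93. Of the 14, 3 were called lower without isotype replicate 2 and 2 fell in both fits without isotype replicate 3. None of the 14 fell in both fits with the linear covariate, nor with the isotype and anti–IL-4Rα libraries only. The list's summed level was 502 to 769 CPM in the anti–IL-4Rα group and 412 to 601 CPM in the isotype group, most of it from *Ltf*, the gene of the tear and granule protein lactoferrin, at 451 to 662 and 252.4 to 523 CPM.

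Of 15 genes of CD4+ and Th2 cells, 1 was called lower, the *Il1rl1* gene already given, which is no larger a share than the 8.13% of all genes. *Cd4* had a log2 fold change of -0.20 (adjusted p = 0.676), *Foxp3* -0.17 (adjusted p = 0.703) and *Gata3*, which epithelium also expresses, -0.43 (adjusted p = 0.0708). Of 14 genes of cytotoxic and type 1 lymphocytes, 2 fell in both fits, the granzymes *Gzma*, from 4.60 ± 2.68 to 1.36 ± 0.414 CPM (log2 fold change -1.75, adjusted p = 0.00537, SE 0.31), and *Gzmb* (log2 fold change -1.60, adjusted p = 0.0146, SE 0.35), and 13 had a lower mean (median log2 fold change -0.72). Without isotype replicate 2 and anti–IL-4Rα replicate 3 together, 5 of the 14 fell in both fits, and 1 did without PBS replicate 1. With the linear covariate none of the 14 did. Over all genes 3.6% fell in both fits. None of 18 interferon-stimulated genes was called, although all 18 had a lower mean (median log2 fold change -0.41); *Oas1a*, *Isg15* and *Mx1* had -0.83 (adjusted p = 0.089), -0.57 (adjusted p = 0.25) and -0.39 (adjusted p = 0.26). Of 14 genes of the IL-17 axis, 3 were called in either direction without the covariate, a share near the 14.9% of all genes, and none with it; the median log2 fold change was 0.06. *Il17a*, at 0.0238 ± 0.0445 and 0.0880 ± 0.109 CPM, did not pass (log2 fold change 1.31, adjusted p = 0.445, SE 1.16), and *Il22* was below the count minimum. Of 12 genes of MHC class II and costimulation, *Pdcd1lg2* alone was called, a share near that of all genes, and the class II genes *H2-Ab1* and *Cd74* had log2 fold changes of -0.30 (adjusted p = 0.219) and -0.19 (adjusted p = 0.404).

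Alarmins and the IL-20 family differed among themselves. The IL-20 family cytokine genes *Il24* (ENSMUSG00000026420, chromosome 1, 130882074 to 130887454) and *Il19* (ENSMUSG00000016524, chromosome 1, 130932656 to 130940115) fell from 1.51 ± 0.965 and 1.21 ± 0.763 CPM to 0.0332 ± 0.0537 and 0.0709 ± 0.0607 CPM, with log2 fold changes of -5.69 (adjusted p = 0.00176, SE 0.81) and -4.17 (adjusted p = 0.00132, SE 0.57). In isotype replicate 1 both were closer to the anti–IL-4Rα libraries, at 0.286 and 0.368 CPM, than the other isotype libraries were. Among 10 epithelial alarmin genes, *Areg*, the growth factor amphiregulin, fell from 8.92 ± 2.50 to 4.36 ± 1.01 CPM (log2 fold change -1.04, adjusted p = 0.00867, SE 0.20), and *Il1rl1* was the other member that fell; neither was called in both fits without isotype replicate 3, or anti–IL-4Rα library 1. The alarmins *Il33* (log2 fold change -0.33, adjusted p = 0.132), *Tslp* (log2 fold change 0.30, adjusted p = 0.219) and *Il25* (log2 fold change 0.62, adjusted p = 0.169) did not pass. Over all genes 3.6% fell in both fits, and with the linear covariate no gene of the alarmin list did.

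Of 17 matrix and remodeling genes compared, 10 were called lower, against 8.13% of all genes, and 9 fell in both fits, against 3.6%. All 17 had a lower mean, with a median log2 fold change of -0.83. *Mmp13*, an interstitial collagenase, was at 2.80, 12.7, 14.5, 17.0 and 20.7 CPM in the isotype libraries and 1.85, 1.54, 0.787, 0.865 and 0.921 CPM in the anti–IL-4Rα libraries, a log2 fold change of -3.50 (adjusted p = 0.00114, SE 0.47). *Mmp10*, a stromelysin, was at 0.286, 2.96, 2.32, 4.30 and 2.35 and 0.0426, 0.151, 0.117, 0.0494 and 0.0945 CPM, a log2 fold change of -4.65 (adjusted p = 0.00121, SE 0.63), and *Timp1*, the inhibitor of such proteases, was at 4.62, 30.9, 19.5, 17.3 and 31.1 and 3.69, 3.09, 3.56, 4.47 and 3.40 CPM, a log2 fold change of -2.51 (adjusted p = 0.00221, SE 0.37). For all 3 genes isotype replicate 1 stood far below the other isotype libraries but still above the anti–IL-4Rα libraries. Periostin (*Postn*), a matrix protein that IL-13 is known to induce, had 517, 666, 936, 618 and 963 CPM and 273, 295, 351, 267 and 338 CPM, a log2 fold change of -1.28 (adjusted p = 0.000594, SE 0.16), and fibronectin (*Fn1*), named after its values were seen, fell from 699 ± 191 to 328 ± 28.0 CPM (log2 fold change -1.09, adjusted p = 0.00184, SE 0.16). The fibrillar collagens *Col1a1* and *Col3a1*, with means of 1795 to 1423 CPM and 2923 to 2222 CPM, did not pass (log2 fold change -0.34 (adjusted p = 0.35) and -0.40 (adjusted p = 0.17)). The number in both fits was 8 to 10 without any single library, but 0 with the linear covariate and 4 with the isotype and anti–IL-4Rα libraries only. Of 9 endothelial genes, the sulfotransferase *Chst4*, which makes selectin ligands (log2 fold change -2.56, adjusted p = 0.00763, SE 0.48), and P-selectin (*Selp*, log2 fold change -0.97, adjusted p = 0.00594, SE 0.17) fell in both fits, E-selectin (*Sele*, log2 fold change -1.12, adjusted p = 0.0207) without the covariate only, and *Vcam1* (log2 fold change -0.09, adjusted p = 0.672) and *Icam1* (log2 fold change 0.12, adjusted p = 0.522) did not pass. Without isotype replicate 3 no endothelial gene fell in both fits, nor did any with the linear covariate.

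All 16 cell cycle genes were called lower, against 8.13% of all genes, and 13 fell in both fits, against 3.6%, with log2 fold changes between -0.92 (*Bub1*) and -0.28 (*Pcna*) and a median of -0.74, or -0.60 with the lacrimal level. *Mki67*, the proliferation marker, was at 85.3, 155, 110.0, 92.7 and 88.6 CPM in the isotype libraries and 59.1, 55.4, 65.8, 59.2 and 66.8 CPM in the anti–IL-4Rα libraries, a log2 fold change of -0.79 (adjusted p = 0.00511, SE 0.14). Isotype replicate 2, the library with the most hair follicle RNA, was the highest and the anti–IL-4Rα libraries lay together below all isotype libraries. With the hair follicle genes as the covariate 15 of the 16 fell in both fits, and with both covariates 13. Without isotype replicate 2 and anti–IL-4Rα replicate 3 together, 15 were called lower and 14 fell in both fits. The PBS libraries had 67.4 to 83.3 CPM. *Rrm2*, *Mcm2* and *Pcna*, which serve DNA synthesis, were the members called without the covariate only. With the linear covariate none of the 16 fell in both fits, and 1 did when the PBS libraries were left out of the fit.

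**Figure D4:**
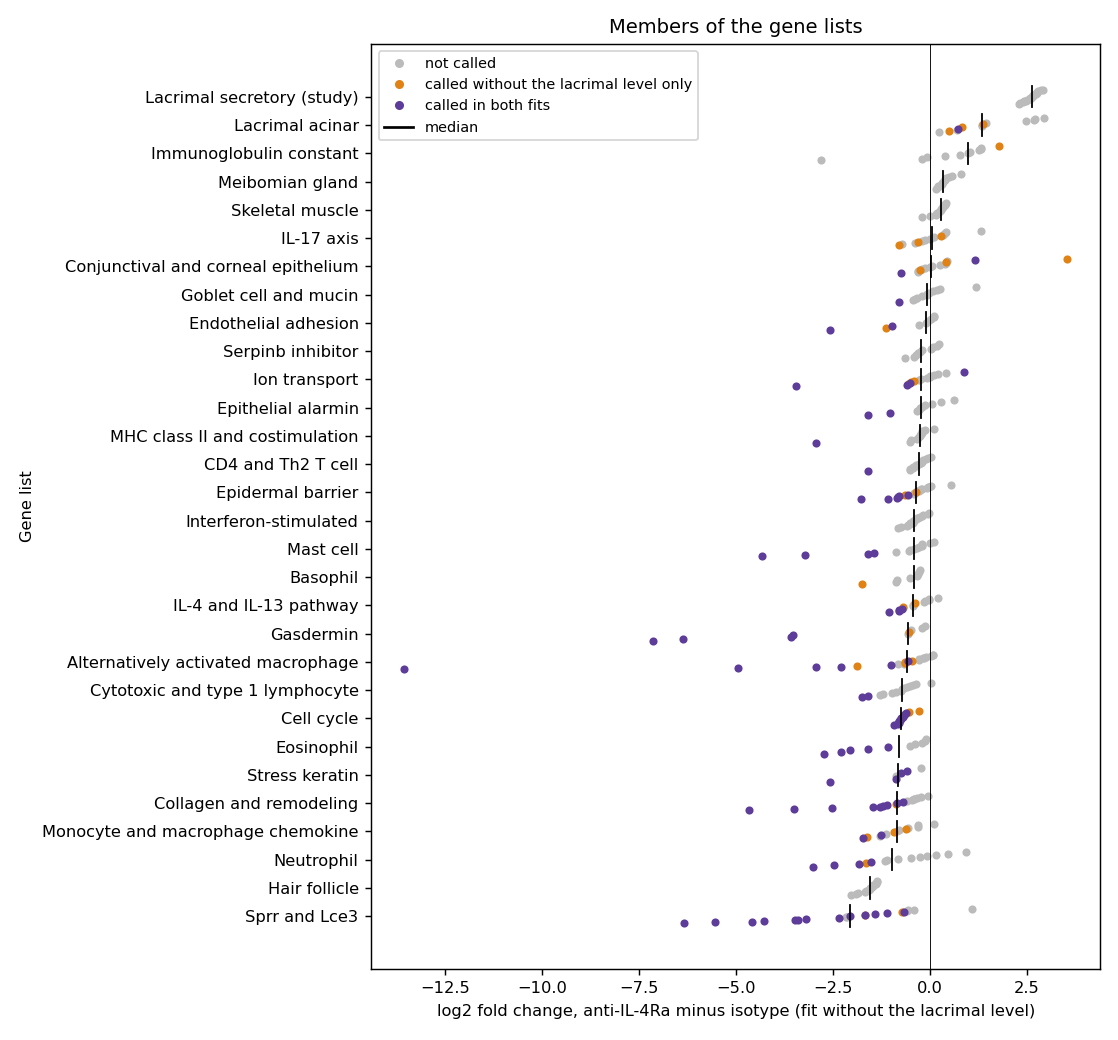
Log2 fold change (anti–IL-4Rα minus isotype, without the lacrimal level) of each member of 30 gene lists, a dot a gene, colored by where it was called, with the list's median as a line. The Sprr and Lce3 list has the lowest median (-2.05), the 16 cell cycle genes lie close together, and the hair follicle and lacrimal secretory genes, displaced as blocks, were not called.

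Genes of neighboring tissue were checked in the same way. No hair follicle gene was called, although all 15 averaged lower in the anti–IL-4Rα group, with a median of -1.55 that became -0.31 with the lacrimal level. Summed, they were at 904 to 12990 CPM in the isotype libraries and 664 to 2324 CPM in the anti–IL-4Rα libraries. With the hair follicle genes as the covariate, 889 genes fell and 412 rose in both fits, and with both covariates together 637 and 221. No meibomian gland gene (13 with a higher mean, median log2 fold change 0.34) and no muscle gene (14 of 15 higher, median log2 fold change 0.28) was called. Of 13 lacrimal acinar genes outside the secretory list, 4 were called higher, *Pigr*, the receptor that carries immunoglobulin A into tears (log2 fold change 1.38, adjusted p = 0.0291), *Xbp1* (log2 fold change 0.84, adjusted p = 0.029), the water channel *Aqp5* (log2 fold change 0.48, adjusted p = 0.0444) and *Amy1* (log2 fold change 0.74, adjusted p = 0.00763), and all but *Amy1* lost the call with the lacrimal level. These 4 names were chosen after their values were seen. Over all genes, 8.13% were called lower and 6.73% higher. Of the 16 conjunctival and corneal genes, 2 were called lower and 3 higher; *Krt14* fell and *Krt18*, a keratin of simple and glandular epithelium, rose in both fits (log2 fold change 1.16, adjusted p = 0.0313, SE 0.32), the latter called in 3 of the 15 fits that each left out 1 library and used the lacrimal level.

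The 15 largest rises in both fits without overlap (with at least 1 CPM in the anti–IL-4Rα group, predicted genes and immunoglobulin segments left out) were *Lyz1*, *Cyp2e1*, *Cxcl13*, *Pla2g2d*, *Fam13a*, *Slc9a4*, *Amy1*, *Fhit*, *Sowaha*, *Bex2*, *Slc1a5*, *Slamf9*, *Zfp697*, *Reln* and *Mgmt*, from a log2 fold change of 1.62 down to 0.64. Among the genes left out, 4 had larger rises in both fits and are named here after their values were seen: the immunoglobulin kappa segments *Igkv6-32* and *Igkv12-41*, with log2 fold changes of 6.84 and 4.73, and *Acsm4* and *Gm44117*, with 2.10 and 1.75 at means under 1 CPM. *Lyz1* (ENSMUSG00000069515, chromosome 10, 117287797 to 117292868), a lysozyme gene of mucosal epithelium and phagocytes, was at 10.9, 5.76, 6.08, 10.9 and 16.4 CPM in the isotype libraries and 29.2, 38.6, 42.6, 19.0 and 23.8 CPM in the anti–IL-4Rα libraries. The highest isotype library lay just below the lowest anti–IL-4Rα library, and the log2 fold change was 1.62 (adjusted p = 0.00534, SE 0.28), or 1.60 (adjusted p = 0.0102, SE 0.30) with the lacrimal level. *Cxcl13* (ENSMUSG00000023078, chromosome 5, 95956951 to 95961068), the chemokine that draws B cells, was at 2.88, 3.48, 2.12, 2.04 and 3.25 CPM and 5.41, 6.24, 9.35, 6.57 and 4.13 CPM, a log2 fold change of 1.20 (adjusted p = 0.00537, SE 0.21), or 1.35 (adjusted p = 0.00341, SE 0.20) with the lacrimal level. Anti–IL-4Rα replicate 3, low in lacrimal RNA, held its highest value. *Pla2g2d* (ENSMUSG00000041202, chromosome 4, 138775735 to 138782046), a secreted phospholipase of lymphoid tissue, was at 5.90, 3.73, 7.02, 5.97 and 5.54 CPM and 9.88, 11.1, 13.99, 10.6 and 9.68 CPM, a log2 fold change of 0.97 (adjusted p = 0.00258, SE 0.15). The PBS libraries of these 3 genes had 13.9 to 19.2, 3.71 to 5.82 and 8.49 to 11.4 CPM, all above the isotype mean.

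*Lyz1*, *Cxcl13*, *Pla2g2d* and *Pou2f2*, a transcription factor of B cells named after its values were seen, were the 4 genes that rose with the covariate on the linear scale too. Their log2 fold changes with that covariate were 2.03, 1.59, 1.14 and 0.97. *Cyp2e1* (ENSMUSG00000025479, chromosome 7, 140763739 to 140774987), a cytochrome P450 of liver and fat, was at 11.2, 7.66, 14.1, 16.7 and 21.3 CPM and 28.0, 47.9, 36.03, 41.0 and 37.2 CPM, a log2 fold change of 1.42 (adjusted p = 0.0188, SE 0.34). *Amy1* (ENSMUSG00000074264, chromosome 3, 113555710 to 113606699), the salivary type amylase, was at 5.27, 4.67, 5.54, 4.82 and 6.73 CPM in the isotype libraries and 9.48, 10.1, 8.80, 8.45 and 8.27 CPM in the anti–IL-4Rα libraries, a log2 fold change of 0.74 (adjusted p = 0.00763, SE 0.14). The glutamine transporter gene *Slc1a5* rose from 55.7 ± 5.21 to 89.2 ± 14.5 CPM (log2 fold change 0.68, adjusted p = 0.00874, SE 0.13), and the matrix protein gene *Reln* from 9.08 ± 2.04 to 14.3 ± 1.81 CPM (log2 fold change 0.66, adjusted p = 0.0144, SE 0.14). *Slamf9*, a receptor of myeloid cells, rose from 2.19 ± 0.331 to 3.48 ± 0.474 CPM (log2 fold change 0.67, adjusted p = 0.00925, SE 0.13) and was also above the PBS group, with a log2 difference of 0.77 (adjusted p = 0.0148). With the lacrimal level in the fit, some of these calls rested on single libraries. *Cyp2e1*, *Slc9a4* and *Bex2* stayed called in 3, 4 and 4 of the 15 fits that each left out 1 library. *Mgmt* lost its call without PBS replicate 1 or isotype replicate 3, or anti–IL-4Rα library 1, 2 or 4, *Reln* without isotype replicate 3, or anti–IL-4Rα library 1 or 4, *Slamf9* without isotype replicate 3, or anti–IL-4Rα library 1, and *Amy1*, *Fhit*, *Sowaha*, *Slc1a5* and *Zfp697* without isotype replicate 3. Without the covariate, *Bex2* was not called without isotype replicate 3, or anti–IL-4Rα library 1 or 4.

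**Figure D5:**
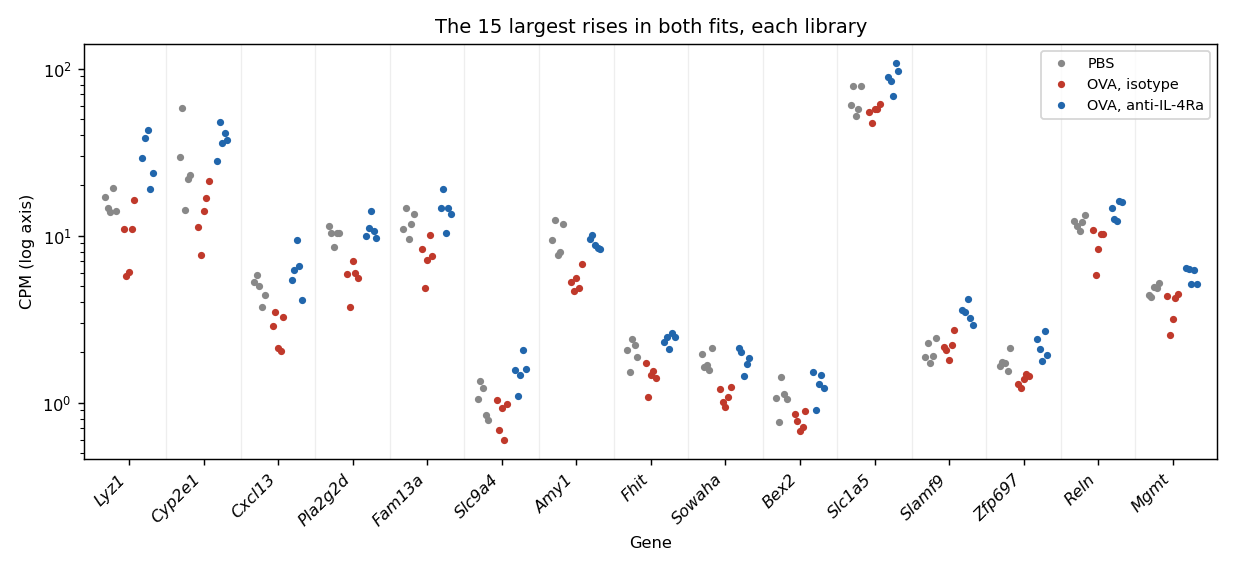
CPM (log axis) of the 15 genes with the largest rises, each dot 1 library of the PBS, isotype or anti–IL-4Rα group. For each gene all 5 anti–IL-4Rα libraries lie above all 5 isotype libraries, by less than in the genes that fell.

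Of 11 immunoglobulin constant region genes, 8 had a higher mean in the anti–IL-4Rα group and 1 was called higher, against 6.73% of all genes. *Igha*, the constant region of immunoglobulin A, was at 39.3, 14.3, 5.00, 39.5 and 47.1 CPM in the isotype libraries and 78.1, 133, 146, 48.2 and 96.1 CPM in the anti–IL-4Rα libraries, a log2 fold change of 1.79 (adjusted p = 0.0273, SE 0.48), or 1.76 (adjusted p = 0.0566, SE 0.50) with the lacrimal level. The groups did not overlap, but the call was lost without isotype replicate 2, or anti–IL-4Rα library 2. The list's median log2 fold change was 0.98. *Ighe*, the constant region of immunoglobulin E, was at 0.695, 1.36, 1.16, 6.94 and 6.14 CPM and 0.0852, 2.02, 0.0146, 0.0247 and 0.0472 CPM, a log2 fold change of -2.80 (adjusted p = 0.13, SE 1.18). The difference did not pass: 4 of the 5 anti–IL-4Rα libraries were below every isotype library, and replicate 2 was not. *Ighg1* was at 48.2 to 536 CPM in the isotype group and 29.5 to 1451 CPM in the anti–IL-4Rα group, replicate 3 being the highest, a log2 fold change of 0.98 (adjusted p = 0.489, SE 0.96).

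Genes called without the lacrimal level only numbered 861 lower and 947 higher. The largest falls among them, each with at least 1 CPM, were *Sprr2j-ps* (log2 fold change -3.19), the pseudogene *Mrip-ps* (log2 fold change -2.96), the natriuretic peptide gene *Nppb* (log2 fold change -1.98), *Ccl17* and *Mcpt8*. The largest rises were *Krt12* (log2 fold change 3.55, adjusted p = 0.0293, SE 0.96), *Odam* (log2 fold change 2.89, adjusted p = 0.0452, SE 0.90), *Lypd2* (log2 fold change 2.34), *Phyh* (log2 fold change 2.18) and *Arhgdig* (log2 fold change 2.17). *Krt12*, the keratin of corneal epithelium, was at 0.695, 1.33, 1.28, 0.996 and 0.921 CPM in the isotype libraries and 47.2, 1.21, 6.35, 3.11 and 3.87 CPM in the anti–IL-4Rα libraries, where replicate 1 alone was above 10 CPM; with the lacrimal level it had 3.20 (adjusted p = 0.103, SE 1.11). *Phyh*, an enzyme of fatty acid oxidation, was at 499, 78.0, 165, 389 and 152 and 1393, 662, 139, 1890.2 and 1722 CPM, low in anti–IL-4Rα replicate 3 and isotype replicate 2 as the lacrimal genes were, and it had 1.58 (adjusted p = 0.0969, SE 0.53) with the covariate. Without anti–IL-4Rα replicate 1, *Krt12*, *Odam*, *Lypd2*, *Phyh*, *Arhgdig*, *Sprr2j-ps*, *Mrip-ps* and *Nppb* were not called. Genes called only with the lacrimal level numbered 5, of which the rule names *Esp31*, *Vstm2b* (log2 fold change -0.50 without and -0.69, adjusted p = 0.0135, SE 0.14 with it), *Kcnn3* (log2 fold change -0.44 and -0.52) and *Dact1* (log2 fold change -0.29 and -0.36).

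Of the 685 genes that fell in both fits, 56 were also called lower than in the PBS group, a comparison that shares the anti–IL-4Rα libraries. Over all genes, 1.44% were lower and 2.28% higher than in the PBS group. Besides *Mrgprg*, *Col6a5* and *Pyy*, these included *Sprr2a3* (-2.78, adjusted p = 0.00662) and *Sprr2a2* (-1.86, adjusted p = 0.036), *Ear2* (-0.91, adjusted p = 0.0472), *Il13ra2* (-1.32, adjusted p = 0.00262), *Fcgbp* (-0.71, adjusted p = 0.0231) and *Cish* (-0.48, adjusted p = 0.0302), all relative to PBS on the log2 scale. For *Fcgbp* the isotype libraries spanned the PBS range, at 174 to 296 against 179.6 to 263 CPM. For *Il13ra2* they were at 4.54 to 7.58 CPM against 6.87 to 10.5 CPM in the PBS libraries, with a lower mean. In both genes the anti–IL-4Rα group stood apart from the isotype and PBS groups.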

How the data were processed

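RNA was extracted from conjunctival tissue of 15 mice (5 per group), and stranded mRNA libraries were sequenced as read pairs. The authors trimmed adaptors, removed reads under a quality score of 20, kept pairs that mapped once to the B38 build with the Ensembl release 100 gene model in Omicsoft Array Studio (version not stated), and deposited estimated counts per gene; the counting method and the use of strand are not given in the sources used here. Each library held 48622246 to 87745024 counts. The methods speak of 2 outlier samples without naming them, and all 15 libraries were kept. No 2 libraries of a group were alike within sampling noise.

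The estimated counts were rounded to whole numbers. The 19006 of 55487 genes that reached 10 counts in 5 or more of the 15 libraries were tested with edgeR 4.0.16 (R 4.3.3) by TMM normalization and quasi-likelihood tests over the 3 groups, anti–IL-4Rα minus isotype, with Benjamini-Hochberg adjustment over all of them. A second fit added the lacrimal level, the mean log2 CPM (prior count 2) of *Obp1a* and *Mucl2*, which are therefore left out of counts over both fits. Each SE was derived from the F statistic. Group differences of single values were tested by exact permutation of 10 libraries. Each library is labelled as a mouse of its own, and p-values measure the spread between these libraries.

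The comparison, its members and the 31 gene lists (433 genes, 407 tested) were chosen with earlier results of these data known, and the lists of lacrimal secretory genes and of attenuated genes were chosen by the study on these samples. Of the latter, 23 genes that hold many *Sprr*, *Lce3* and gasdermin C genes, 19 were called lower and 17 fell in both fits, which is no independent evidence of their direction. The genes named are the 15 largest falls and 15 largest rises called in both fits without overlap of the groups and with at least 1 CPM in the higher group, up to 5 of each called in 1 fit only, and in a list the 5 largest changes and its defining genes; predicted genes and immunoglobulin segments were left out of the first 3. Other list members named were chosen for their role after their values were seen. Gene positions are those of GENCODE M21 (Ensembl release 96, GRCm38), in which 55227 of the 55487 identifiers were found, and promoters are RefSeq's.

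In counts simulated for the same comparison on 18842 genes, 172 of 200 changed genes were called in both fits (31 of 50 at 1.5-fold, 42 of 50 at 2-fold, 49 of 50 at 4-fold) with 3 others. Of 300 genes made to follow the lacrimal level on the log2 scale, none was called in both fits. None was called without the covariate either, so the simulation cannot show what the covariate removes. Alternatives used DESeq2 1.42.0, limma 3.58.1 (voom, and a linear model of log2(FPKM + 1) after the study's methods), other size factors, filters, thresholds, covariates and samples. One result is not reported here.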

Additional observations from a re-analysis of the deposited data

Results flagged for a closer look

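In 14 of 94 groups of 5 libraries examined, 1 library lay apart from the other 4 by more than Dixon's 95% critical value (0.71), where chance gives about 1 in 20. Isotype replicate 2 had a lacrimal level of -1.51 (log2 CPM; the others 10.9 to 13.9), a hair follicle level of 8.86 (4.77 to 5.90), a total of 87745024 counts (48657048 to 55724845), *Esp31* at -4.50 (log2 CPM; 5.41 to 8.43) and *Vstm2b* at -0.16 (0.72 to 0.95). Anti–IL-4Rα replicate 3 had a lacrimal level of 9.003 (14.7 to 16.1), *Esp31* at 2.36 (8.66 to 10.5), *Odam* at -3.04 (0.97 to 2.52), *Arhgdig* at -1.23 (1.98 to 2.94) and *Kcnn3* at 1.70 (1.30 to 1.41). Of the 14, 10 were thus in these 2 libraries, all of them in library measures or in genes called in 1 fit only.

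Among the largest falls, *Mmp10* was at -1.64 in isotype replicate 1 (log2 CPM; the others 1.24 to 2.11), *Pyy* was at -0.59 in isotype replicate 4 (0.11 to 0.31), and its single count in the anti–IL-4Rα group put replicate 5 at -4.12 where the others had none. *Sprr2j-ps* was at -0.46 in anti–IL-4Rα replicate 4, where the other 4 were at -4.88 to -3.98; this library also held the highest *Sprr2e*, *Sprr2i* and *Krt16* of its group.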

How the results depend on the processing

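The counts of 1546 genes lower and 1280 higher, and of 685 and 333 in both fits, stayed within 1.5 times under other size factors, robust estimation, another count filter and secretory or hair follicle genes as covariate, and moved further as follows. In both fits DESeq2 called 1200 and 906, voom 531 higher, and the linear model on log2(FPKM + 1) 454 and 190, with 806 higher without the covariate. Without a filter 686 were higher, 140 of them in both fits. With the isotype and anti–IL-4Rα libraries only, 509 were lower and 168 higher, and 102 and 12 in both fits. With a fold of at least 1.5 the counts were 610 and 400, and 407 and 133 in both fits; at an adjusted p under 0.1 they were 2445 and 2252, and 1238 and 925. With the covariate on the linear scale, both fits called 23 and 4, with acinar genes as covariate 323 and 106, and with lacrimal and hair follicle levels together 221 higher. Without 1 library the counts ran from 626 to 2094 lower and 256 to 2112 higher, and from 262 to 919 and 32 to 1084 in both fits, the lowest each time without isotype replicate 3. Leaving out isotype replicate 2 and anti–IL-4Rα replicate 3 together, chosen after seeing the data as were the hair follicle covariates, gave 1135 higher in both fits. The difference in lacrimal level was 1.86 to 5.99 without 1 library and 3.197 without those 2. The cause was not tested.

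The replicate numbers did not pair the libraries: the correlation between same-numbered isotype and anti–IL-4Rα libraries ran from -0.293 to 0.324, and 1 of 5 isotype libraries correlated best with its own number. With the replicate block 824 genes were higher, and 333 were lower and 116 higher in both fits.

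Over the 44 genes named by the rule, 503 of their values under alternatives stayed on the same side of the threshold in the same direction, 89 lost the call, 14 gained it and 6 turned direction: with the linear covariate *Odam* (-0.45), *Phyh* (-0.33), *Arhgdig* (-0.19) and *Esp31* (-2.12), and *Esp31* with the lacrimal level (-0.67) and with both levels (-0.67). Of values without 1 library, where the gene passed the filter on counts, 561 stayed, 76 lost and 3 gained the call. Genes near 1 CPM rest on few counts in the anti–IL-4Rα group, and close copies (*Sprr2a1* to *Sprr2a3*, *Gsdmc2* to *Gsdmc4*, *Mcpt1* and *Mcpt2*, *Chil3* and *Chil4*) may share reads.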
